A study of Mus musculus with 9 samples.

Results

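Epcam, Cldn6, Cldn7, Tjp3, Krt8, Krt18, Krt19, Esrp1 and Esrp2 are 9 genes of the epithelial cell: adhesion and tight junction proteins, keratins and splicing regulators. They were followed by symbol through polyA+ RNA-seq of mouse embryonic stem cells and embryoid bodies, and are 9 of the 49326 named gene identifiers and 9 of the 24794 that passed the filter on low counts. Simple epithelia hold their cells together with tight junctions, whose strands are built of claudins such as Cldn6 and Cldn7 and are tied to actin by scaffold proteins such as Tjp3 (also called ZO-3). Epcam is a surface adhesion protein of epithelia and of embryonic stem cells that associates with claudin-7. Krt8 is a type II keratin and Krt18 and Krt19 are type I keratins, and a type II and a type I chain pair to form the filament; Krt8 and Krt18 are among the first keratins made in the mouse embryo. Esrp1 and Esrp2 are RNA-binding proteins that switch transcripts such as Fgfr2 and Cd44 to their epithelial splice forms.

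The Hnrnpll-/- (KO) groups held 2 libraries at each of day 0, day 4 and day 8, 1 from each of the knockout lines G6 and H8. The wild-type (WT) groups held 1 library at each of the same days. Hnrnpll is an hnRNP-type RNA-binding protein, and the series asks what its depletion does to gene expression while embryoid bodies form. Stem cells (day 0) were grown in serum with LIF, and bodies were aggregated in hanging drops. No label says how the lines were made, and WT is a single line, so genotype and line cannot be told apart in any comparison. The KO libraries of a day came from different lines, but nothing in the labels says whether the days of a line came from separate cultures. The p-values measure only the spread between libraries of these lines.

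Total counts over named genes were 54202944 (G6) and 61611725 (H8) in the KO libraries of day 0, and ran from 113023429 to 184890212 in the other 7. Of the counts up to 40, 43.5% (G6) and 42.6% (H8) were whole multiples of 4 in the KO libraries of day 0, against 30.5% to 33.2% in the other 7 and 25% by chance, so counts may not be independent fragments. Hnrnpll itself remained listed in the KO libraries, with 54.9 (G6) and 24.5 (H8) TPM in KO cells at day 0, against 77.1 TPM in WT cells. Its KO minus WT log2 difference was -1 at day 0, -1.07 at day 4 and -0.97 at day 8, and none of these passed the test. TPM is the deposited length-scaled level, and differences are log2 values from edgeR's quasi-likelihood test on the deposited counts, adjusted by the Benjamini-Hochberg method over all 24794 genes, with a threshold of 0.05.

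Krt8 (chr15:101996698-102004482, minus strand) and Krt18 (chr15:102028180-102032027, plus strand) lie 23698 bases apart on mm10. Cldn6 (chr17:23679249-23682446, plus strand) and Epcam (chr17:87635979-87651129, plus strand) share chromosome 17. Cldn7 (chr11:69964779-69967885, plus strand) and Krt19 (chr11:100140810-100148665, minus strand) share chromosome 11. Tjp3 (chr10:81273207-81291581, minus strand), Esrp1 (chr4:11331933-11386783, minus strand) and Esrp2 (chr8:106130319-106136974, minus strand) lie elsewhere. The promoters of Krt18, Krt8, Cldn6 and Tjp3 are shown because the results turn on these genes and the promoters share a short word. Those of Esrp1, Esrp2 and Krt19 are not shown. Each is the RefSeq window (GRCm38.p6) from 250 bases before the start to 50 after it, 5′ to 3′ on the strand of the gene. The capitals mark the E-box CACCTG or its reverse complement CAGGTG, a sequence bound by Snail and Zeb family repressors of epithelial genes. The windows are chr15:102027966-102028265 (plus strand) for Krt18, chr15:102004293-102004592 (minus strand) for Krt8, chr17:23679115-23679414 (plus strand) for Cldn6 and chr10:81291532-81291831 (minus strand) for Tjp3.
Krt18: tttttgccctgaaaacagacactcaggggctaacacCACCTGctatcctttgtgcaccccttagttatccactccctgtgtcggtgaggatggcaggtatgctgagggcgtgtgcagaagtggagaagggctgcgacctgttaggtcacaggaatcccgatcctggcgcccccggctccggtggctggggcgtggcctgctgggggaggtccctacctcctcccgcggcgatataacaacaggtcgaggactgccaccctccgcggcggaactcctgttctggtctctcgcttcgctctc
Krt8: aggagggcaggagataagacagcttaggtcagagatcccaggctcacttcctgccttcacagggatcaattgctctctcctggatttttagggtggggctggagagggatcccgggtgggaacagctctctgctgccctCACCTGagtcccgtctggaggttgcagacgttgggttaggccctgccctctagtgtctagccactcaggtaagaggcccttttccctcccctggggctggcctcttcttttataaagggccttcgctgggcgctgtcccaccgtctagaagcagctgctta
Cldn6: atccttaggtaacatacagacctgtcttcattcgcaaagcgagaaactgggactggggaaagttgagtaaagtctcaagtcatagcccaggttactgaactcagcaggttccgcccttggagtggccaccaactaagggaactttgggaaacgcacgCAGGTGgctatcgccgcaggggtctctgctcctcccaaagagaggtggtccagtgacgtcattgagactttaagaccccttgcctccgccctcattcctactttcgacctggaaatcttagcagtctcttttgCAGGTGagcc
Tjp3: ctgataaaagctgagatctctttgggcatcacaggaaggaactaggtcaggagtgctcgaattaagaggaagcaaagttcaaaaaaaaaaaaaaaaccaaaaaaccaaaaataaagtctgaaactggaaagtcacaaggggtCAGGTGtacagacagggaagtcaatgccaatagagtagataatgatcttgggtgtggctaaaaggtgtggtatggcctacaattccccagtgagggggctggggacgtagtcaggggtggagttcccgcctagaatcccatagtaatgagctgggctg

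At least 1 E-box stood in a window of all 6 members that the promoter table holds (Epcam, Cldn6, Cldn7, Krt8, Krt18 and Tjp3), against 22.6% of all 27025 genes in it and 20.2% of its 32851 windows. Its first base lay 214 bases before the start in Krt18, 111 before it in Krt8, 93 before and 40 after it in Cldn6, and 108 before it in the Tjp3 window shown. Epcam carried it 187 and 19 bases before its start. Of the windows not shown, the second of Cldn7 carried it 97 and 57 bases before its start and the second of Tjp3 17 bases before its start, while the first of Cldn7 held none. The grainyhead-like word AACCGGTT, searched on both strands, was in no member's window and in 0.146% of all windows, and its looser form AACNNGTT was in no member's window and in 4.2% of all windows. These are matches of letters, and binding was not measured.

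The genes as a group stood lowest in KO stem cells. Summed over the 9 genes, the level was 245 (G6) and 342 (H8) TPM in KO cells at day 0, against 938 TPM in WT cells. At day 4 the sum was 977 (G6) and 1023 (H8) TPM in KO bodies, against 1364 TPM in WT bodies, and at day 8 it was 1646 (G6) and 2494 (H8) TPM in KO bodies, against 2911 TPM in WT bodies. For this sum both KO lines lay below WT at each day, with the widest gap in ratio at day 0. Krt8 and Krt18 made up 20.5% (G6) and 39.9% (H8) of the sum in KO cells at day 0, against 59.3% in WT cells. At day 4 they made up 25.6% (G6) and 35.3% (H8) of it in KO bodies, against 55.5% in WT bodies. At day 8 they made up 66.4% (G6) and 81.6% (H8) of it in KO bodies, against 79.3% in WT bodies. The sum leans on these keratins and does not stand for each gene. At day 4 both KO lines lay above WT for Epcam, Cldn6, Cldn7, Esrp2 and Tjp3, and below it for Krt8, Krt18 and Esrp1. Less RNA per cell and fewer cells that make it cannot be told apart in bulk libraries.

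**Figure D1:**
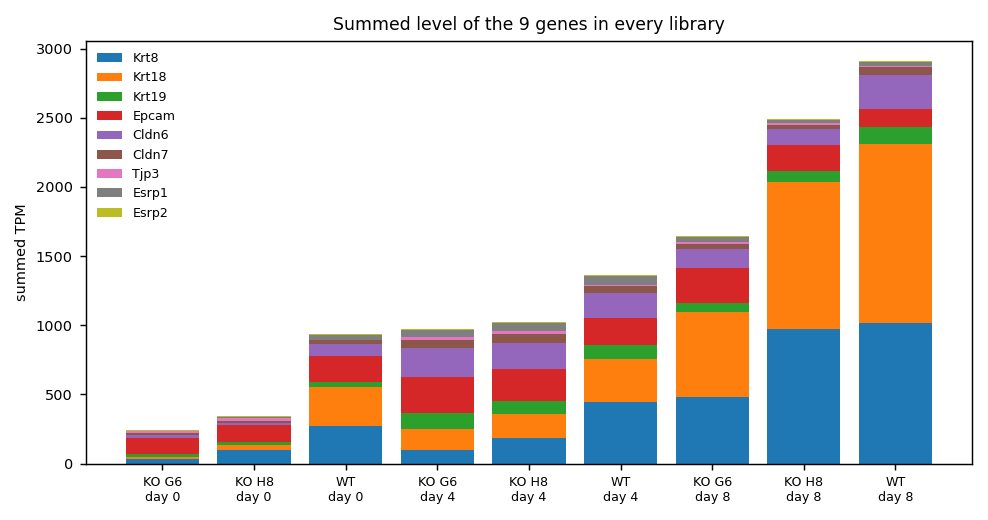
Summed TPM of the 9 genes (vertical axis) in each library, stacked by gene, with the KO lines G6 and H8 left of WT at each day. The KO bars of day 0 reach 245 and 342 TPM, against 938 TPM for WT, and Krt8 and Krt18 fill most of the bars at day 8.

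At day 0, 3 of the 9 genes were lower in KO than in WT cells (Cldn6, Krt18 and Esrp1) and none was higher, against a background of 4.33% of all tested genes lower and 5.43% called in either direction. The median log2 difference was -0.98 over the 9 genes and -0.02 over all genes. At an unadjusted p under 0.05, 8 of the 9 genes and 6038 of all genes stood apart. DESeq2 called 6 of the 9 and 3737 of all genes, with Krt8 and Krt19 also lower and Tjp3 higher. In TPM, both KO lines lay below WT for 7 of the 9 (40.2% of all genes), and both lay above it for Tjp3 alone (32.9% of all genes), while Esrp2 had WT between the lines.

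At day 4 none of the 9 was called by edgeR, against 0.00807% of all genes (2 genes). DESeq2 called 1 of the 9 and 1320 of all genes. At an unadjusted p under 0.05 edgeR had 1 of the 9 and 3352 of all genes. The median log2 difference was 0.07 over the 9 genes and 0.07 over all genes. Both KO lines lay above WT in TPM for 5 of the 9 (Epcam, Cldn6, Cldn7, Esrp2 and Tjp3; 46.1% of all genes) and below it for 3 (Krt8, Krt18 and Esrp1; 31.5% of all genes).

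DESeq2 called 3 of the 9 and 5455 of all genes at day 8. None of the 9 was called by edgeR at that day, against 9.87% of all genes (5.01% higher and 4.86% lower). Of the edgeR calls over all genes 50.7% were higher in KO, and 32.1% with limma on log2(TPM + 1). At an unadjusted p under 0.05 edgeR had 3 of the 9 and 7354 of all genes. The median log2 difference was -0.36 over the 9 genes and 0.08 over all genes. Both KO lines lay above WT in TPM for Epcam and Tjp3 (40.1% of all genes) and below it for 5 of the 9 (Cldn6, Cldn7, Krt8, Krt18 and Krt19; 44.4% of all genes).

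With day as a term, so that genotype is compared over all days, 1 of the 9 (Tjp3) was higher in KO and none was lower, against 0.387% of all genes higher and 0.984% in either direction. Along the KO course, 6 of the 9 were higher at day 4 than at day 0 (Epcam, Cldn6, Cldn7, Krt18, Krt19 and Esrp1) and none was lower, against 9.56% of all genes higher and 14.7% in either direction. The median log2 difference of that step was 2.28 over the 9 genes and 0.06 over all genes. Between KO day 8 and KO day 4, edgeR called none of the 9, against 0.311% of all genes. At an unadjusted p under 0.05 it had 6 of the 9 and 3283 of all genes. DESeq2 called 3 of the 9 and 1565 of all genes. The same KO libraries of day 0 enter the day 0 comparison and the first step of the KO course, and those of day 4 enter both steps.

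**Figure D2:**
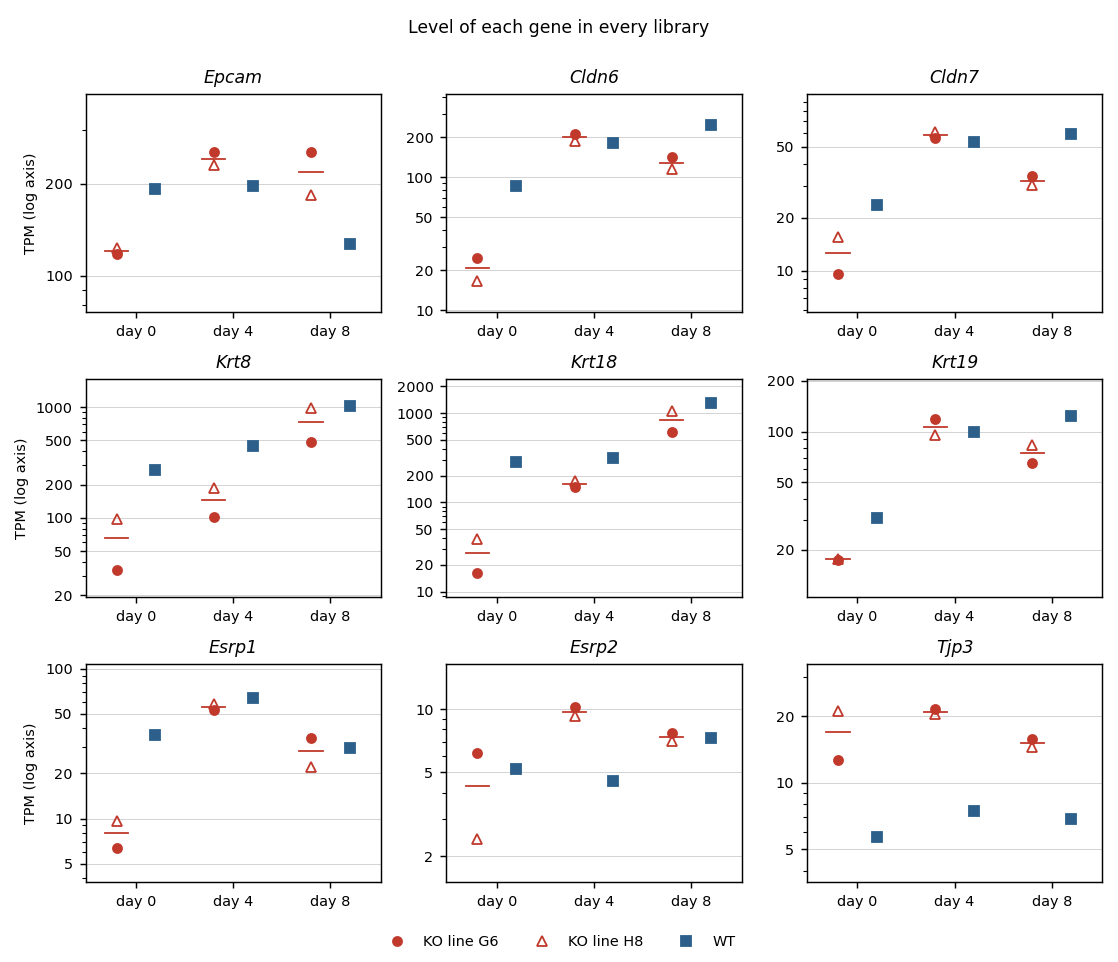
TPM of each gene (vertical axes, log scale) at day 0, day 4 and day 8, with red circles for KO line G6, red triangles for KO line H8, a red line for the KO mean and blue squares for the single WT library. Krt18 and Cldn6 sit far below WT at day 0 in both KO lines, and Tjp3 sits above WT at each day.

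Krt18, the type I keratin that pairs with Krt8 in simple epithelia, had 16.2 (G6) and 38.5 (H8) TPM in KO cells at day 0, against 284 TPM in WT cells. At day 4 it had 149 (G6) and 174 (H8) TPM in KO bodies, against 313 TPM in WT bodies, and at day 8 it had 610.1 (G6) and 1059 (H8) TPM in KO bodies, against 1296 TPM in WT bodies. Both lines were below WT at each day. The difference at day 0 was -3.35 (SE 0.546, edgeR adjusted p = 0.0277), a level 10.2-fold lower in KO than in WT cells. It was -1.03 (SE 0.541, edgeR adjusted p = 0.471) at day 4 and -0.52 (SE 0.548, edgeR adjusted p = 0.574) at day 8. The day 0 call was lost when a KO body library was left out of the shared estimate of spread, with an edgeR adjusted p of 0.0748 without G6 and 0.0743 without H8 at day 4, and of 0.0504 without G6 and 0.0516 without H8 at day 8. Without the day 0 library of G6 or of H8 it held, with the log2 difference between -4.19 and -2.83 over all 8 fits that left a library out.

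Krt8, its type II partner, had 34.1 (G6) and 98 (H8) TPM in KO cells at day 0, against 273 TPM in WT cells. At day 4 it had 101 (G6) and 187 (H8) TPM in KO bodies, against 444 TPM in WT bodies, and at day 8 it had 483 (G6) and 976 (H8) TPM in KO bodies, against 1014 TPM in WT bodies. All KO libraries were below the WT library of their day, and H8 was above G6 at each day, by 2.88 times at day 0, 1.85 times at day 4 and 2.02 times at day 8. The day 0 difference of -2.02 (SE 0.715) missed the threshold (edgeR adjusted p = 0.157). With the KO line as a block, a value within a day is line G6 minus WT, not the mean of the lines. That value was -2.81 at day 0 (edgeR adjusted p = 0.0128), and G6 was the lower line. At day 4 the difference was -1.69 (SE 0.715, edgeR adjusted p = 0.377) and at day 8 it was -0.36 (SE 0.733, edgeR adjusted p = 0.789).

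The balance of the pair differed with day and genotype. The ratio of Krt8 to Krt18 in TPM was 2.1 (G6) and 2.55 (H8) in KO cells at day 0, against 0.962 in WT cells. It was 0.678 (G6) and 1.07 (H8) in KO bodies at day 4, against 1.42 in WT bodies, and 0.791 (G6) and 0.921 (H8) in KO bodies at day 8, against 0.782 in WT bodies. KO lay above WT at day 0 and day 8 and below it at day 4, and the KO and WT ratios were closest at day 8. Reads of Krt8 could also be shared with Krt8-ps, a processed pseudogene on chromosome 7 that is 98.6% identical over 941 bases. Its TPM was 0% (G6) and 0.441% (H8) of that of Krt8 in KO cells at day 0, and between 1.78% and 2.19% of it in the other 7 libraries.

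**Figure D3:**
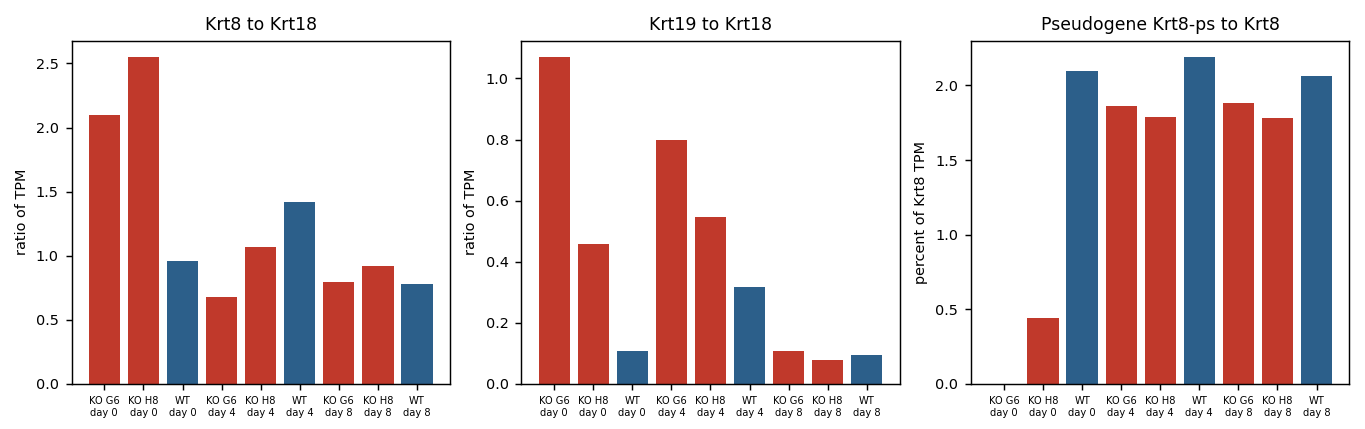
Ratio of TPM of Krt8 to Krt18 and of Krt19 to Krt18, and TPM of the pseudogene Krt8-ps as a percentage of that of Krt8 (vertical axes), with the KO lines G6 and H8 left of WT at each day. The Krt8 to Krt18 ratio of the KO cells at day 0 (2.1 and 2.55) is above that of every other library.

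Krt19, a type I keratin found in many simple epithelia, differed less. It had 17.3 (G6) and 17.7 (H8) TPM in KO cells at day 0, against 30.8 TPM in WT cells, then 119 (G6) and 95 (H8) TPM in KO bodies at day 4, against 98.8 TPM in WT bodies. At day 8 it had 65.4 (G6) and 83.4 (H8) TPM in KO bodies, against 124 TPM in WT bodies. The lines were below WT at day 0 and day 8 and on either side of it at day 4. The differences were -0.86 (SE 0.218, edgeR adjusted p = 0.0791) at day 0, 0.15 at day 4 and -0.47 at day 8, and none passed. Its TPM was 1.07 (G6) and 0.459 (H8) of that of Krt18 in KO cells at day 0, against 0.109 in WT cells. By day 8 that ratio was 0.107 (G6) and 0.0787 (H8) in KO bodies, against 0.0958 in WT bodies.

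In the KO course Krt18 rose between day 0 and day 4 by 2.54 (SE 0.484, edgeR adjusted p = 0.0232) and Krt19 by 2.59 (SE 0.194, edgeR adjusted p = 0.00178). The Krt18 call was lost without the day 4 library of G6 (edgeR adjusted p = 0.0859) or of H8 (0.107), and the Krt19 call held in all 9 fits with a library left out. Krt8 differed by 1.11 (SE 0.615, edgeR adjusted p = 0.268) over that step, and passed with the line as a block (0.0197). From KO day 4 to KO day 8 the difference was 2.34 for Krt8 (SE 0.637, edgeR adjusted p = 0.203) and 2.37 for Krt18 (SE 0.479, edgeR adjusted p = 0.116). Both passed with the line as a block, at edgeR adjusted p = 0.0389 for Krt8 and 0.0488 for Krt18. On the log2(TPM + 1) scale Krt18 was higher at day 4 than at day 0 by 3.13 in G6 and 2.15 in H8, against 0.14 in WT. It was higher at day 8 than at day 4 by 2.03 in G6 and 2.6 in H8, against 2.05 in WT. The WT course has 1 library a day and no test.

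Cldn6, the claudin of embryonic epithelia, had 24.8 (G6) and 16.6 (H8) TPM in KO cells at day 0, against 86.6 TPM in WT cells. At day 4 it had 213 (G6) and 188 (H8) TPM in KO bodies, against 181 TPM in WT bodies, and at day 8 it had 142 (G6) and 116 (H8) TPM in KO bodies, against 247 TPM in WT bodies. KO was below WT at day 0 and day 8 and slightly above it at day 4. The day 0 difference was -2.07 (SE 0.243, edgeR adjusted p = 0.0113), 4.19-fold lower in KO than in WT cells, and it passed in all 8 fits that left a library out (edgeR adjusted p between 0.0102 and 0.0438). The day 8 difference was -0.82 (SE 0.246, edgeR adjusted p = 0.0881), and it passed when the day 0 library of G6 (0.0418) or of H8 (0.0404) was left out of the fit. Between KO day 0 and KO day 4 Cldn6 rose by 3.28 (SE 0.225, edgeR adjusted p = 0.00148), 9.7-fold higher at day 4. On the log2(TPM + 1) scale the step was 3.05 in G6 and 3.43 in H8, against 1.06 in WT. The next step was -0.58 in G6 and -0.69 in H8, against 0.45 in WT.

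Cldn7, the claudin that associates with Epcam, had 9.61 (G6) and 15.6 (H8) TPM in KO cells at day 0, against 23.6 TPM in WT cells. It had 56.2 (G6) and 60.6 (H8) TPM in KO bodies at day 4, against 53.5 TPM in WT bodies, and 34.1 (G6) and 30.5 (H8) TPM in KO bodies at day 8, against 59.1 TPM in WT bodies. Its KO libraries took the same order against WT as those of Cldn6, below at day 0 and day 8 and above at day 4. No difference from WT passed, with -0.98 (SE 0.355, edgeR adjusted p = 0.165) at day 0, 0.05 at day 4 and -0.76 at day 8. Between KO day 0 and KO day 4 it rose by 2.28 (SE 0.312, edgeR adjusted p = 0.00894), a call lost without the day 4 library of G6 (0.0509) or of H8 (0.061).

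Epcam was the most abundant of the 9 in the KO libraries of day 0 and day 4. It had 118 (G6) and 123 (H8) TPM in KO cells at day 0, against 193 TPM in WT cells. It had 254 (G6) and 231 (H8) TPM in KO bodies at day 4, against 197 TPM in WT bodies, and 254 (G6) and 184 (H8) TPM in KO bodies at day 8, against 127 TPM in WT bodies. The KO lines were below WT at day 0 and above it at day 4 and day 8. The differences were -0.67 (SE 0.223, edgeR adjusted p = 0.137) at day 0, 0.22 at day 4 and 0.91 (SE 0.237, edgeR adjusted p = 0.0646) at day 8, and none passed. With counts scaled by their totals alone, the day 8 difference was 1 and passed (edgeR adjusted p = 0.0484). Between KO day 0 and KO day 4 Epcam rose by 1 (SE 0.188, edgeR adjusted p = 0.0222). That call was lost without G6 (0.0605) or H8 (0.0504) at day 0 and without G6 (0.123) or H8 (0.108) at day 4.

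Tjp3 was the gene of the 9 with both KO lines above WT at each day. It had 12.7 (G6) and 21.1 (H8) TPM in KO cells at day 0, against 5.69 TPM in WT cells. It had 21.5 (G6) and 20.4 (H8) TPM in KO bodies at day 4, against 7.48 TPM in WT bodies, and 15.8 (G6) and 14.5 (H8) TPM in KO bodies at day 8, against 6.85 TPM in WT bodies. The lowest KO library was above the highest WT library. Over all days the difference was 1.42 (SE 0.221, edgeR adjusted p = 0.0364), 2.67-fold higher in KO than in WT. Within a day it was 1.59 (SE 0.38, edgeR adjusted p = 0.071) at day 0, 1.41 (SE 0.375, edgeR adjusted p = 0.229) at day 4 and 1.26 (SE 0.372, edgeR adjusted p = 0.0842) at day 8, and none of these passed by edgeR. DESeq2 called it higher in KO at each day, with an adjusted p of 0.00103 at day 0, 0.0141 at day 4 and 0.013 at day 8. At day 8 it passed without the day 0 library of G6 (0.0235) or of H8 (0.024).

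The all-days call of Tjp3 held in only 1 of 9 fits with a library left out, the one without G6 at day 0 (edgeR adjusted p = 0.0449). The edgeR adjusted p was 0.0544 without H8 at day 0, 0.0936 without G6 and 0.0995 without H8 at day 4, and 0.0812 without G6 and 0.0802 without H8 at day 8. It was 0.0562 without the WT library of day 0, 0.0644 without that of day 4 and 0.0866 without that of day 8. The log2 difference in these fits ran from 1.26 to 1.5. On days 4 and 8 alone, an alternative chosen after seeing the data, it was 1.32 (edgeR adjusted p = 0.0568). Exons of Tjp3 overlap those of Apba3 on the opposite strand, and whether the counting used strand is not given in the sources used here. Apba3 had 28.7 (G6) and 29.4 (H8) TPM in KO cells at day 0, against 20.2 TPM in WT cells, and its all-days difference was 0.27 (edgeR adjusted p = 0.421).

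**Figure D4:**
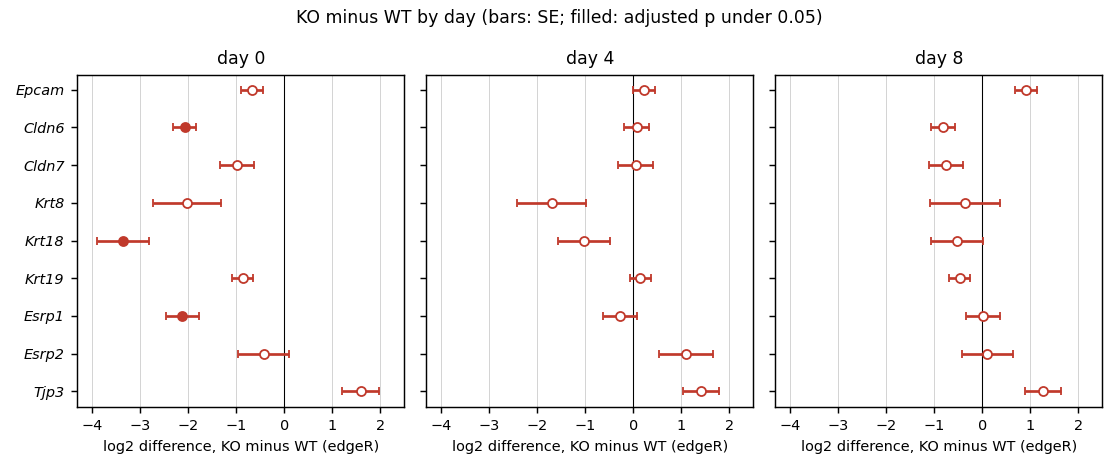
KO minus WT log2 difference from edgeR for each gene at day 0, day 4 and day 8, with bars of 1 SE and filled points for an adjusted p under 0.05. Cldn6, Krt18 and Esrp1 are filled at day 0, and the Tjp3 points lie between 1.26 and 1.59 at the 3 days.

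Esrp1 had 6.32 (G6) and 9.69 (H8) TPM in KO cells at day 0, against 36.2 TPM in WT cells. At day 4 it had 52.8 (G6) and 58.6 (H8) TPM in KO bodies, against 64.2 TPM in WT bodies, and at day 8 it had 34.6 (G6) and 22 (H8) TPM in KO bodies, against 29.6 TPM in WT bodies. The gap to WT was wide at day 0 and small at day 4, and the lines stood on either side of WT at day 8. The day 0 difference was -2.12 (SE 0.343, edgeR adjusted p = 0.0269), 4.36-fold lower in KO than in WT cells. That call was lost without G6 at day 0 (0.0552) and without G6 (0.0748) or H8 (0.0754) at day 4. The difference was -0.28 at day 4 and 0.02 at day 8. Between KO day 0 and KO day 4 Esrp1 rose by 2.77 (SE 0.311, edgeR adjusted p = 0.00506), in all 9 fits with a library left out, and from KO day 4 to KO day 8 it differed by -0.98 (SE 0.292, edgeR adjusted p = 0.234). In WT, Esrp1 was 0.81 higher at day 4 than at day 0 on the log2(TPM + 1) scale, and the next step was -1.09.

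Esrp2 was the least abundant of the 9 in each KO library. It had 6.17 (G6) and 2.42 (H8) TPM in KO cells at day 0, against 5.21 TPM in WT cells, and 10.2 (G6) and 9.28 (H8) TPM in KO bodies at day 4, against 4.56 TPM in WT bodies. At day 8 it had 7.69 (G6) and 7.07 (H8) TPM in KO bodies, against 7.31 TPM in WT bodies. The lines were on either side of WT at day 0 and day 8 and above it at day 4. The differences were -0.42 (SE 0.531, edgeR adjusted p = 0.671) at day 0, 1.10 (SE 0.564, edgeR adjusted p = 0.459) at day 4 and 0.11 at day 8. Esrp2 overlaps Nfatc3 and 1810019D21Rik on the opposite strand, and its counts are uncertain to that extent. At day 4, 1810019D21Rik had 4.48 (G6) and 5.08 (H8) TPM in KO bodies, against 0.432 TPM in WT bodies (log2 difference 3.29, edgeR adjusted p = 0.149), and its part in the Esrp2 difference was not tested. Nfatc3 had 35.6 (G6) and 32.8 (H8) TPM in KO bodies at day 4, against 32.3 TPM in WT bodies. Esrp1 overlaps the lincRNA Gm26663 on the opposite strand, whose level was at most 0.98 TPM, and Krt8 overlaps the lincRNA Gm36026, not analysed here. The ratio of Esrp1 to Esrp2 in TPM was 1.02 (G6) and 4 (H8) in KO cells at day 0, against 6.95 in WT cells. At day 4 it was 5.16 (G6) and 6.32 (H8) in KO bodies, against 14.1 in WT bodies, and at day 8 it was 4.5 (G6) and 3.12 (H8) in KO bodies, against 4.05 in WT bodies.

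Whether the KO minus WT difference changed between days was tested as an interaction. Between day 4 and day 0 edgeR called none of the 9, against 0.504% of all genes. At an unadjusted p under 0.05 it had 5 of the 9 and 4267 of all genes. DESeq2 called 3 of the 9 and 1898 of all genes. The Cldn6 interaction was 2.13 (SE 0.362, edgeR adjusted p = 0.0734). Between day 8 and day 4 edgeR called none of the 9 and none of the 24794 genes (0%), with 1 of the 9 and 4041 of all genes at an unadjusted p under 0.05, and DESeq2 called none of the 9 and 1577 genes. Between day 8 and day 0 edgeR called none of the 9, against 4.7% of all genes. At an unadjusted p under 0.05 it had 4 of the 9 and 6343 of all genes. DESeq2 called 4 of the 9 and 3885 of all genes. The interactions nearest the threshold were those of Epcam (1.58, SE 0.325, edgeR adjusted p = 0.0526) and Esrp1 (2.15, SE 0.51, edgeR adjusted p = 0.0702). The Krt18 interaction was 2.83 (SE 0.811, edgeR adjusted p = 0.102), and it passed with the line as a block (0.0365). So the calls at day 0 and their absence at day 4 and day 8 do not by themselves show that the KO difference changed with day.

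Across the 9 libraries, Krt8 and Krt18 moved closely together on the log2(TPM + 1) scale (Pearson's r = 0.97, Spearman's rho = 1.0), and r was 0.96 over the 7 libraries without KO day 0. Cldn6 and Krt19 had r = 0.96, or 0.91 without KO day 0, and Cldn6 and Cldn7 had 0.93, or 0.96 without it. Esrp1 and Krt18 had r = 0.59, but -0.83 over the 7 libraries without KO day 0. Tjp3 had r = -0.43 with Krt8. The libraries share line, day and depth, so these values are descriptions without a test. Among 12007 genes with a mean of at least 5 TPM, the patterns most like that of Krt18 were those of Krt8-ps (r = 0.98), F11r (0.969) and Krt8 (0.966). Those most like Cldn6 were Zfp946 (0.99), Gm8666 (0.99) and Gm12245 (0.985), and those most like Esrp1 were Gm12345 (0.985), H2-Q4 (0.98) and Gm29668 (0.977). For Krt8 they were Krt8-ps (0.983), Krt18 (0.966) and Atp6v1b2 (0.954), and for Epcam Rpl22-ps1 (0.97), Gm7730 (0.959) and 2700038G22Rik (0.958). Of the 14 different genes of like pattern, 7 are processed pseudogenes (Krt8-ps, Gm8666, Gm12245, Gm12345, Gm29668, Rpl22-ps1 and Gm7730).

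A further list of 60 epithelial genes, covering other junction proteins, keratins, epithelial transcription factors, Epcam partners and trafficking proteins, was tested beside the 9. At day 0, 1 of the 60 was higher in KO than in WT cells (1.67%; Nectin1, an adherens junction protein, by 1.86) and 4 were lower (6.67%), among them Krt14, a stratified keratin (-3.41), and Marveld3, a tight junction protein (-2.12). Of all genes 4.33% were lower at day 0 and 5.43% were called in either direction. The Krt14 value rests on 8 (G6) and 4 (H8) counts in KO cells, against 125 counts in WT cells. Krt23 was at 0 counts in both KO libraries of day 0, against 78 counts in WT cells, which made it at least 26.9-fold lower in KO. At day 4 edgeR called none of the 60, against 0.00807% of all genes. DESeq2 called 3 of the 60 higher and 2 lower, and 1320 of all genes. At day 8, 10 of the 60 were higher in KO bodies (16.7%) and 4 were lower (6.67%), against 5.01% of all genes higher and 4.86% lower. Krt23 had 88 (G6) and 74 (H8) counts in KO bodies at day 8, against 0 counts in WT bodies, at least 20.2-fold higher in KO. Krt5, a keratin of basal cells, had 28 (G6) and 63 (H8) counts in KO bodies, against 0 counts in WT bodies, at least 11.3-fold higher in KO. Cldn5, the claudin of endothelium, was lower in KO bodies at day 8, with a log2 difference of -3.70 (SE 0.393, edgeR adjusted p = 0.0175). The floor behind these bounds is 3 counts over a group and covers counting error only. If 4 counts stand for 1 fragment, the bounds are up to 4 times too high. Krt23 and Krt5 were under 1 TPM in all 9 libraries.

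Over all days, Klf5 of the 60 was higher in KO (2.26), and the desmosome genes Dsc2 (-1.15) and Dsp (-1.09) were lower. Of all genes 0.387% were higher in that comparison and 0.984% were called in either direction. In the KO course, 18 of the 60 rose between day 0 and day 4 (30%) and 2 fell (3.33%), with Marveld3 (3.68), the trafficking protein Mal2 (3.68) and the keratin Krt15 (2.87) the furthest. Of all genes 9.56% rose in that step and 14.7% were called in either direction. The Krt15 value rests on 4 counts in each KO library of day 0, and Krt15 was under 1 TPM in all 9 libraries. The median log2 difference of that step was 0.76 over the 60 genes, beside 2.28 over the 9. Between KO day 4 and KO day 8 edgeR called none of the 60, against 0.311% of all genes. DESeq2 called 6 of the 60 higher and 4 lower, and 1565 of all genes.

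Markers of other cell types differed between the same libraries, and their part in the results above was not tested. The 7 pluripotency genes summed to 9999.5 (G6) and 9702 (H8) TPM in KO cells at day 0, against 7142 TPM in WT cells, and to 7344 (G6) and 7017 (H8) TPM in KO bodies at day 8, against 1201 TPM in WT bodies. At day 4 they summed to 4332 (G6) and 4902 (H8) TPM in KO bodies, against 3559 TPM in WT bodies, and all 7 were at or above 1 TPM in each of the 9 libraries. The 10 mesenchyme genes, at 67.4 (G6) and 74.4 (H8) TPM in KO bodies at day 4, against 332 TPM in WT bodies, summed to 235 (G6) and 218 (H8) TPM in KO cells at day 0, against 415 TPM in WT cells, and to 72.1 (G6) and 274 (H8) TPM in KO bodies at day 8, against 1354 TPM in WT bodies. At day 4 the 6 primitive streak genes summed to 53.6 (G6) and 125 (H8) TPM in KO bodies, against 1597 TPM in WT bodies. At day 8 the 5 cardiac genes summed to 3.39 (G6) and 5.25 (H8) TPM in KO bodies, against 170.0 TPM in WT bodies, and the 5 genes of endothelium and blood to 51.4 (G6) and 51.6 (H8) TPM in KO bodies, against 613 TPM in WT bodies. Of that last WT sum, 462 TPM was the globin Hbb-bh1. Most of the KO sum was Pecam1, at 49 (G6) and 41.6 (H8) TPM, against 21.1 TPM in WT bodies. Pecam1 was thus higher in KO, while Kdr, Cdh5, Gata1 and Hbb-bh1 were lower in both KO lines.

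Of the lineages that carry simple keratins, the 8 trophoblast genes summed to 36.9 (G6) and 26.7 (H8) TPM in KO cells at day 0, against 42 TPM in WT cells. They summed to 41.2 (G6) and 56.4 (H8) TPM in KO bodies at day 4, against 309 TPM in WT bodies, and to 78.8 (G6) and 153 (H8) TPM in KO bodies at day 8, against 321 TPM in WT bodies. Most of the WT sum was Eomes at day 4 (253 TPM), also on the primitive streak list, and Hand1 at day 8 (239 TPM). The genes did not move together at day 8. Cdx2, Hand1 and Gata3 were lower in both KO lines than in WT bodies, and Elf5, Krt7 and Tfap2c were higher. Elf5 was under 1 TPM in all 9 libraries, with 0.326 (G6) and 0.409 (H8) TPM in KO bodies at day 8, against 0.214 TPM in WT bodies. Krt7 had 28.6 (G6) and 31.8 (H8) TPM in KO bodies, against 11.7 TPM in WT bodies. Prl3d1, which marks trophoblast giant cells, was at 0 in all 9 libraries, and Elf5 was at 0 in both KO libraries of day 0. The 10 endoderm genes summed to 34.2 (G6) and 11.2 (H8) TPM in KO cells at day 0, against 21.3 TPM in WT cells. At day 4, with WT between the lines, they summed to 116 (G6) and 26.3 (H8) TPM in KO bodies, against 98.8 TPM in WT bodies. At day 8 they summed to 109 (G6) and 97.9 (H8) TPM in KO bodies at day 8, against 640.5 TPM in WT bodies. The 6 surface ectoderm genes stayed between 3.67 and 8.06 TPM in KO libraries, against 6.01 to 8.01 TPM in WT libraries.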

How the data were processed

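PolyA+ RNA of 6 KO and 3 WT libraries was analysed. The submitters' processing notes name HISAT2 2.0.5, StringTie 1.3.3b and the mm10 build. Their roles, the annotation and whether strand was used are not given in the sources used here. The deposited tables hold, for each gene and library, unscaled whole-number counts and TPM, both made by the authors. From the deposited counts, 259 identifiers without a gene name (0.0242% to 0.0398% of a library) were left out. A gene was kept at 0.0791 CPM or more (10 counts in the library of median size) in 2 or more libraries. Counts were normalised by TMM and tested two-sided with edgeR 4.0.16 (R 4.3.3, limma 3.58.1), with Benjamini-Hochberg adjustment over 24794 genes. Comparisons within a day, along the KO course and between days came from a model of 6 group means (3 residual degrees of freedom), in which the single WT library at each day takes its spread from the KO libraries. The all-days comparison came from terms for day and genotype (5 residual degrees of freedom). There the days of a line count as separate replicates of its genotype, though they share that line. The test was tried on simulated data beforehand. Total counts of 54202944 to 184890212 set the precision, and floors of 3 counts cover counting error only.

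The members, the further list and the marker lists were chosen with earlier results of these data known, so their counts are descriptions. All 9 members were named throughout. Of the 60 further genes, the report names at most 3 per comparison, those called with the widest log2 difference. Nectin1 and the genes named under other observations fall outside that rule and were chosen after their values were seen. The interaction of 1 gene of the further list is not reported here. Genes of like pattern are the 3 with the highest Pearson's r on log2(TPM + 1), and gene positions are those of GENCODE on mm10. The sequence likeness of Krt8-ps was measured with BLAST 2.17.0. Alternatives were RLE size factors, total count scaling, no filter, DESeq2 1.42.0, limma on log2(TPM + 1), the KO line as a replicate block, each library left out, and, chosen after seeing the data, days 4 and 8 only. Within a day the block compares line G6 with WT, with the gap between the lines held equal over days. It does not compare the mean of the 2 lines there. In steps of the KO course and in interactions the line term cancels, and over all days the 2 lines are averaged. The line numbers pair the KO libraries because the labels give the same line at each day. The H8 minus G6 differences had a correlation of 0.09 between day 0 and day 4, 0.08 between day 0 and day 8 and 0.2 between day 4 and day 8, across 24794 genes.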

Additional observations from a re-analysis of the deposited data

Results flagged for a closer look

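Of the further epithelial genes, Krt23, a type I keratin, had a KO minus WT difference that was not the same at day 8 as at day 0. It was at 0 counts in both KO libraries and at 78 counts in WT at day 0, and at 88 (G6) and 74 (H8) counts in KO bodies and 0 counts in WT bodies at day 8. The interaction passed (edgeR adjusted p = 0.0253). At day 4 it had 10 (G6) and 8 (H8) counts in KO bodies, against 16 counts in WT bodies, and it stayed under 1 TPM in all 9 libraries.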

How the results depend on the processing

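In the model of group means the 2 KO lines of each day carry all of the measured spread. In the all-days comparison the WT libraries enter the spread as well. The shallow KO libraries of day 0 enter every day 0 value. With RLE size factors every count of calls stayed within 1.5 times its main value. With DESeq2, 6 of the 9 genes were called at day 0, 1 at day 4, 3 at day 8 and 4 over all days. It called 7 of the 9 between KO day 4 and KO day 0 and 3 between KO day 8 and KO day 4. In the interactions it called 3 of the 9 (day 4 against day 0) and 4 (day 8 against day 0). Over all genes DESeq2 called 3737 at day 0, 1320 at day 4, 5455 at day 8, 3348 over all days, 6065 between KO day 4 and KO day 0, 1565 between KO day 8 and KO day 4, and 1898 (day 4 against day 0), 1577 (day 8 against day 4) and 3885 (day 8 against day 0) in the interactions. For the 60 further genes, the day 0 comparison had 6 DESeq2 calls higher in KO and 10 lower. That of day 4 had 3 higher with 2 lower, while that of day 8 had 16 higher with 8 lower. Over all days 9 were higher and 9 lower. Between KO day 4 and KO day 0 DESeq2 called 24 of the 60 higher and 4 lower. Between KO day 8 and KO day 4 it called 6 higher and 4 lower. The day 4 against day 0 interaction had 6 higher with 2 lower. That of day 8 against day 4 had 4 higher with 1 lower, while that of day 8 against day 0 had 13 higher with 4 lower.

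Total count scaling called 1 of the 9 (Epcam) and 2309 of all genes at day 8. In the day 8 against day 0 interaction it called 1 of the 9 (Epcam) and 1173 of all genes. At day 4 it called 1 of all genes. The higher share of calls was 49.5%, against 39.3% in the main fit, over all days and 59.2%, against 50.7%, at day 8. Without a filter 6 genes were called at day 4 and 382 over all days. With limma on log2(TPM + 1), 31 genes were called at day 4, none of the 9 and 91 genes over all days, 373, 337 and 2006 genes in the interactions of day 4 against day 0, day 8 against day 4 and day 8 against day 0, and 1 of the 9 (Epcam) in the last. The higher share of calls there was 62.6% over all days and 32.1% at day 8. The Tjp3 all-days value there had an adjusted p of 0.0516. With the KO line as a replicate block, 4 genes were called at day 4, where the value is line G6 minus WT, and 153 over all days. Between KO day 8 and KO day 4 the block called 2 of the 9 and 150 genes. It called 12 genes in the day 4 against day 0 interaction. In that of day 8 against day 0 it called 1 of the 9 (Krt18) and 1359 of all genes. The block also called Krt8 between KO day 4 and KO day 0. It called Krt8 at day 0 as well, but as line G6 minus WT, which is not the comparison of the main fit. No other call among the 9 changed. On days 4 and 8 only, chosen after seeing the data, 0 of the 9 and 14 genes were called. In these settings the cause was not tested.

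With 1 library left out, the number of the 9 called ran from 1 to 4 at day 0, 0 to 2 at day 8, 0 to 1 over all days, 3 to 6 between KO day 4 and KO day 0 and 0 to 2 in the day 8 against day 0 interaction. Calls over all genes ran from 375 to 1586 at day 0, 0 to 6 at day 4, 0 to 4196 at day 8, 0 to 469 over all days, 675 to 4017 between KO day 4 and KO day 0, 0 to 164 between KO day 8 and KO day 4, and 0 to 199, 0 to 1 and 0 to 2126 in the interactions of day 4 against day 0, day 8 against day 4 and day 8 against day 0.

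Signs turned only for uncalled differences of the 9. Esrp1 at day 8 was -0.01 with RLE size factors, -0.01 with DESeq2 and -0.10 with limma. With the block, Cldn7 at day 4 was -0.09 and Esrp1 at day 8 was 0, but these are values of line G6 minus WT. With a library left out, KO minus WT values ran from -1.28 to 0.09 for Esrp2 at day 0, -0.04 to 0.13 for Cldn7 at day 4, -0.90 to 0.05 for Krt8 and -0.35 to 0.35 for Esrp1 at day 8, and -0.18 to 0.56 for Esrp2 and -0.26 to 0.53 for Epcam over all days. Steps ran from -0.06 to 0.77 for Tjp3 between KO day 4 and KO day 0 and from -0.39 to 0.09 for Epcam between KO day 8 and KO day 4. Interactions ran from -0.27 to 1.34 for Krt8 and -0.53 to 0.29 for Tjp3 (day 4 against day 0), -0.04 to 0.67 for Esrp1 and -0.20 to 0 for Tjp3 (day 8 against day 4), and -0.15 to 0.73 for Cldn7 and -0.68 to 0.16 for Tjp3 (day 8 against day 0). The 18 WT steps kept their sign with a pseudocount of 0.1.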

Other observations

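Within the further list, the genes for polarised trafficking rose most often between KO day 0 and KO day 4, at 4 of 5 tested: Mal2 (log2 difference 3.68), Rab25 (2.64), Ap1m2 (2.06) and Myo5b (1.59), with a median of 2.06 over the 5. Of the 16 tight junction genes 7 rose and none fell, with a median of 1.31, and of the 10 epithelial transcription factors none was called, with a median of -0.03. Over all genes 9.56% rose in this step.

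At day 8 the epithelial transcription factors stood apart from the tight junction genes. Of the 10 factors 3 were higher in KO than in WT bodies (Klf5 by 3.39, Grhl3 by 2.54 and Elf3 by 1.86) and none was lower, with a median of 1.76. Of the 16 tight junction genes none was higher and 2 were lower (Cldn5 with -3.70 and Tjp1 with -0.75), with a median of -0.24. The 9 desmosome genes were split, with Pkp3 (1.97), Evpl (1.90) and Ppl (1.31) higher and Dsp (-1.57) and Dsc2 (-1.50) lower. Over all genes 5.01% were higher and 4.86% lower at day 8. Klf5 is also expressed in naive embryonic stem cells, and the 7 pluripotency genes summed to 7344 (G6) and 7017 (H8) TPM in KO bodies at day 8, against 1201 TPM in WT bodies; their part in these differences was not tested.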
